A study of Mus musculus with 4 samples.

Results

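The amino acid transporter families were examined in mouse pancreatic islet cells given the mitochondrial-encoded peptide MOTS-c or a scrambled peptide. The set was drawn from the Slc1, Slc6, Slc7, Slc36, Slc38 and Slc43 carriers whose symbols end in a number, together with the heavy chains Slc3a1 and Slc3a2. Each gene was represented by its brightest probe, and 59 genes with 85 probes were found among 22911 named genes on the array. All 4 arrays carried RNA of islet cells from male C57BL/6 mice aged 60 weeks, which were littermates. Islets were freed with collagenase, purified on a gradient, picked by hand and dispersed into single cells. The cells then received scrambled peptide (replicates 1 and 2) or MOTS-c (replicates 2 and 3), each at 10 μM for 24 h ex vivo. The labels do not tie arrays to animals or to separate cultures, so that p-values measure the spread between these samples, which may in part be technical. No spot of a member probe was an outlier or saturated, and the number of arrays limits the precision of every value.

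Amino acids cross membranes through carriers that differ in substrate, in driving ion and in whether they take up, release or exchange their cargo. The Slc1 carriers concentrate glutamate and aspartate or exchange small neutral amino acids. The Slc6 carriers use sodium and chloride gradients to take up GABA, glycine, taurine, betaine, creatine, monoamines and neutral amino acids. The Slc7 family holds cationic amino acid carriers and the light chains that reach the membrane by pairing with the heavy chain Slc3a1 or Slc3a2. The Slc38 carriers (SNATs) move glutamine and other neutral amino acids, the Slc36 carriers couple to protons, and the Slc43 carriers include facilitative leucine transporters. In islet cells, amino acids can trigger or amplify insulin and glucagon release, arginine and other cationic amino acids depolarize the beta cell directly, and beta cells make and release GABA.

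Most of the families were measurable in these cells. The brightest probe was well above its local background on all 4 arrays for 40 members, on 3 arrays for Slc7a10 and Slc43a1, on 1 array for Slc43a3 and on no array for 16 members. The 42 members detected on at least 2 arrays were tested, which is 71.2% of the set against 67.5% of all named genes. All 10 Slc38 carriers from Slc38a1 to Slc38a10 were detected, and Slc38a11 was not. The Slc7 family had 11 of 15 members tested, the Slc1 family 5 of 6, the Slc43 family 2 of 3, the Slc36 family 2 of 4 and the Slc3 family both of its members. The Slc6 family had the lowest share after Slc36, with 10 of 18 members tested.

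The members that were not well above background on any array included carriers known from glia, neurons and kidney. They were the glial glutamate carrier Slc1a3, the noradrenaline and serotonin carriers Slc6a2 and Slc6a4, the neuronal glycine and proline carriers Slc6a5 and Slc6a7, the GABA carrier Slc6a11, and Slc6a14, Slc6a18 and Slc6a21. The light chain Slc7a9, which pairs with Slc3a1 in the kidney, was among them with Slc7a12, Slc7a13, Slc7a15, Slc36a2, Slc36a3 and Slc38a11. Over these 16 members and all 4 arrays, the spot median lay between 0.725 and 1.37 times the median of its surroundings. The dopamine carrier Slc6a3 was detected on every array, but only narrowly. Its spot stood at 1.43 and 1.79 times the local background with scrambled peptide and at 1.38 and 1.46 times with MOTS-c.

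**Figure D1:**
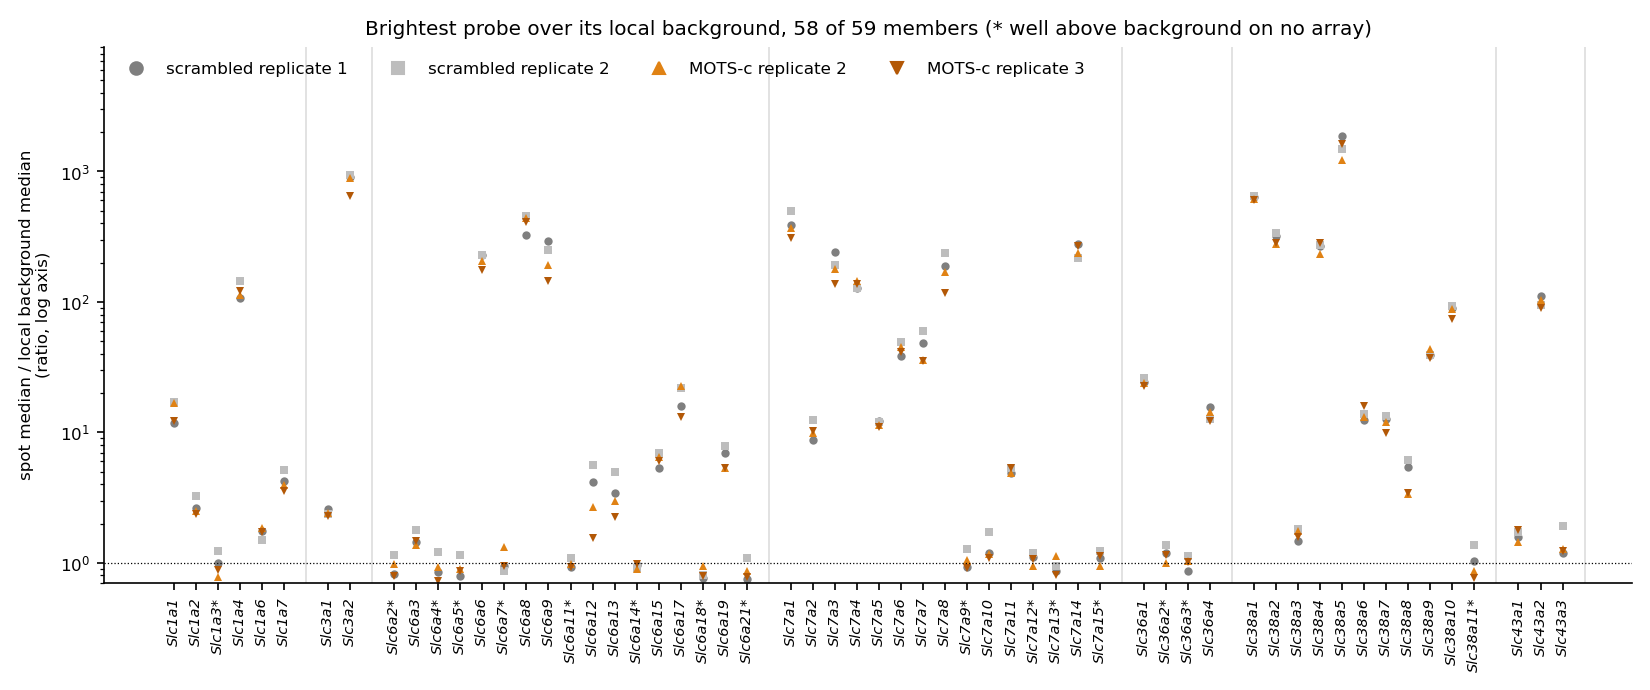
Spot median over local background median (log axis) for the brightest probe of 58 of the 59 members on each array, grouped by family. The 16 members marked with an asterisk lie around a ratio of 1, from 0.725 to 1.37, whereas Slc38a5 lies between 1228 and 1871.

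MOTS-c and scrambled peptide were compared with limma on quantile-normalized log2 signals, and a member was called when its unadjusted p was under 0.05 and its change at least 1.5-fold. No member passed an adjusted p of 0.05 over the 35087 probes tested, with a lowest adjusted p of 0.474 in limma after Benjamini-Hochberg adjustment, and none of the other probes did (0% of the 15469 named genes tested). At the unadjusted p of 0.05, 8 of 42 members passed and all 8 were lower with MOTS-c, against a background of 8.61% in either direction over the brightest probes of all named genes. The call was met by 5 members, all lower (background 3.01% of all named genes), namely Slc6a9, Slc6a12, Slc6a13, Slc6a19 and Slc38a8. No member was called higher, against 0.996% of all named genes. A change of at least 1.5-fold regardless of p was seen in 6 members in the lower direction (background 4.21%) and in 0 in the higher direction (background 1.44%). Of the 42 members, 18 had both MOTS-c values under both scrambled values (background 22.7%), 3 had both above (background 19.8%) and 21 overlapped between the groups. The median change of the tested members was -0.10 on the log2 scale, against -0.00 over all named genes tested, and their median absolute change was 0.19 against 0.14. The change was negative for 28 members and positive for 14. In bulk RNA of this kind, fewer cells of a type and less RNA per cell cannot be told apart.

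The MOTS-c arrays were not alike in size of change. MOTS-c replicate 3 gave a lower signal than MOTS-c replicate 2 for 29 of the 42 tested members, and for 14 of the 18 that were lower on both arrays. The order of these arrays was counted for members only, without the share over all named genes. With MOTS-c replicate 2 left out, 9 members were called lower, as were 5.2% of all probes against 2.43% with every array. With MOTS-c replicate 3 left out 5 members were (2.78% of all probes). With scrambled replicate 1 or 2 left out, 5 and 4 members were called lower (2.4% and 2.26% of all probes). No member was called higher in any of these fits.

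**Figure D2:**
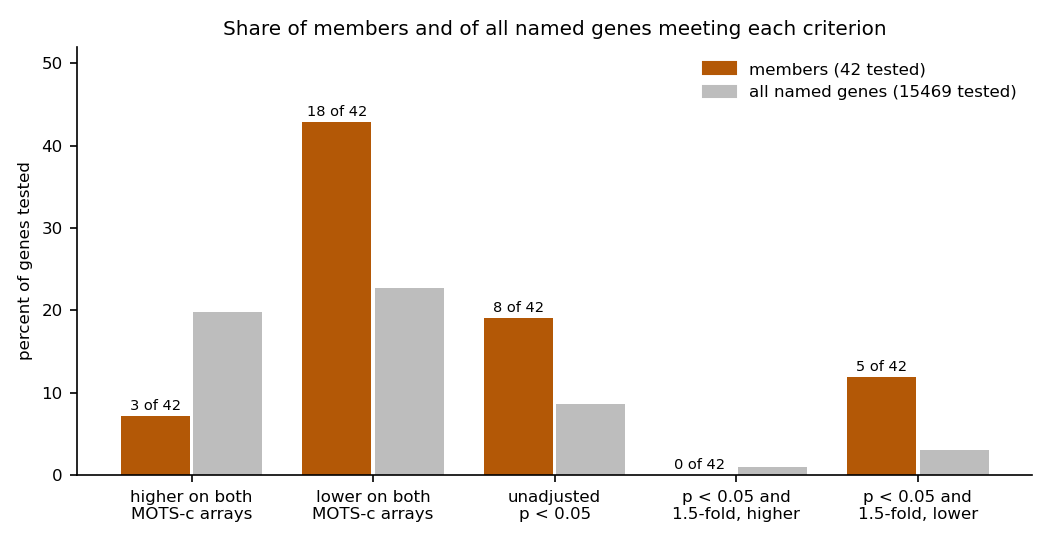
Percent of the 42 tested members (orange) and of the 15469 tested named genes (grey) that met each criterion for MOTS-c against scrambled peptide. Members were lower on both MOTS-c arrays in 18 of 42 and called lower in 5 of 42, against 22.7% and 3.01% of all named genes.

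**Figure D3:**
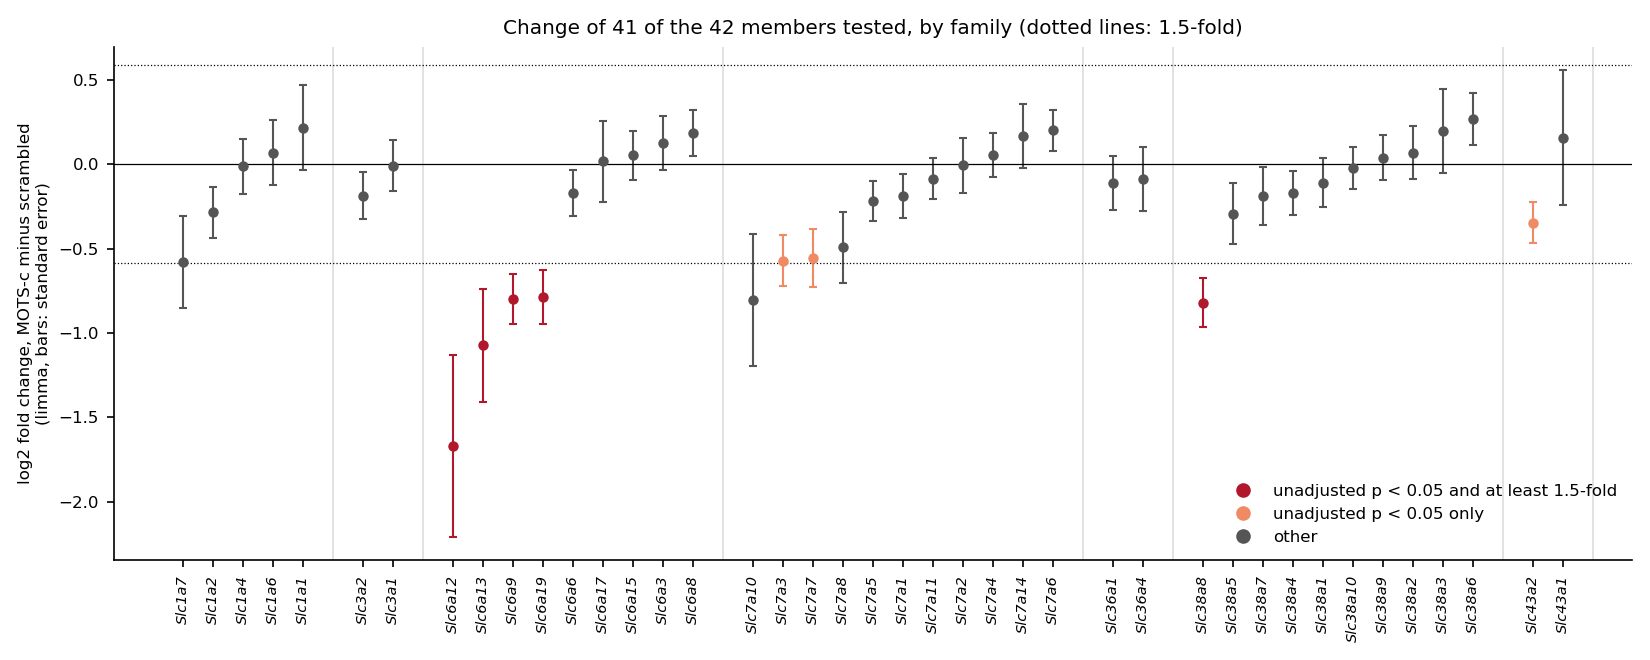
Log2 fold change (MOTS-c minus scrambled, limma) with its standard error for 41 of the 42 tested members, ordered within its family. Red marks the 5 members called lower, and no member reached the upper dotted line at 1.5-fold.

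The Slc6 family held 4 of the 5 calls. Slc6a12, the betaine and GABA carrier BGT1, gave log2 signals of 6.81 and 7.33 with scrambled peptide and 6.16 and 4.64 with MOTS-c. The groups did not overlap, and with MOTS-c replicate 3 lay far below replicate 2. The change was -1.67 ± 0.54 (SE, n = 2 against 2; limma adjusted p = 0.571), or 3.18-fold lower. Its spot stood at 4.16 and 5.57 times the local background with scrambled peptide and at 2.68 and 1.55 times with MOTS-c. The change was -0.91 without MOTS-c replicate 3, where the call was kept, and the call was lost without scrambled replicate 1 (-1.92) and without scrambled replicate 2 (-1.42), since the unadjusted p then exceeded 0.05. Without MOTS-c replicate 2 the change was -2.42, and with normexp background correction it was -0.90 and called.

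Slc6a13, the GABA and taurine carrier GAT2, showed the same order of arrays. Its log2 signals were 6.02 and 6.40 with scrambled peptide and 5.58 and 4.70 with MOTS-c, without overlap. The change was -1.07 ± 0.33 (SE; limma adjusted p = 0.564), or 2.10-fold lower. The call was lost without scrambled replicate 2 (-0.89), where the unadjusted p exceeded 0.05. With normexp the change was -0.35 and not called. The call was kept at -0.64 without MOTS-c replicate 3 and at -1.51 without MOTS-c replicate 2. Slc6a13 and Slc6a12 are neighbouring genes on the mouse genome, and theirs was the only pair of neighbouring members in which both were called, of 3 neighbouring pairs with both members tested.

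Slc6a12 is known as a target of the tonicity-responsive factor NFAT5, which binds the TonE motif. Sequence just before an annotated start of each of these neighbouring genes is shown because both windows hold that motif. The bases are from RefSeq on GRCm38.p6, 5′ to 3′ on the gene's strand, with the TonE match in capitals.
Slc6a12, chr6:121342414-121342573, plus strand: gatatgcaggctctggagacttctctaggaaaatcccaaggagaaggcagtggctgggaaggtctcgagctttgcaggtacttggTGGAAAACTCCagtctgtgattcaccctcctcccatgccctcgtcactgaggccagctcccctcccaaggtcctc
Slc6a13, chr6:121303479-121303638, plus strand: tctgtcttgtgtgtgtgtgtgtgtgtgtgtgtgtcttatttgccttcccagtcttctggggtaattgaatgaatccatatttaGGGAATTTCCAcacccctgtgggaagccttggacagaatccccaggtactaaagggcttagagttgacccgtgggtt
The Slc6a12 match lies on the gene's own strand from 75 to 65 bases before one of its 5 annotated starts, and the Slc6a13 match on the opposite strand from 77 to 67 bases before one of its 3 annotated starts. TonE was searched on either strand in 300 bases around each start, and a gene counted if any of its windows matched. It was found in 7 of the 42 members with a promoter window (16.7%) and in 5.74% of all genes of the table. The 42 members had 63 windows, and the 27025 genes of the table had 32851. By window, TonE was in 7 of the 63 member windows and in 4.96% of all windows. The other members with a match were Slc6a17, Slc6a21, Slc36a3, Slc38a4 and Slc38a6. Of these, Slc6a21 and Slc36a3 were not detected and Slc6a17, Slc38a4 and Slc38a6 changed by 0.02, -0.17 and 0.27 on the log2 scale, none of them called. In Slc38a4 matches on the opposite strands overlapped. Such a match describes letters in a window and is no measurement of binding.

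None of the other carriers of GABA, taurine, betaine and creatine was called. Slc6a6, the taurine carrier TauT and like Slc6a12 a carrier of an organic osmolyte, gave 13.00 and 12.82 with scrambled peptide and 12.79 and 12.68 with MOTS-c. Its change was -0.17 ± 0.14 (SE; limma adjusted p = 0.811), with the MOTS-c arrays narrowly below the scrambled arrays. The creatine carrier Slc6a8 was 1 of the 3 members higher on both MOTS-c arrays, at 13.57 and 13.77 against 13.90 and 13.81, a change of 0.18 ± 0.14 (SE; limma adjusted p = 0.797). A further probe of Slc6a8 changed by 0.25 ± 0.12 and one of Slc6a6 by -0.23 ± 0.12.

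Slc6a9, the glycine carrier GlyT1, was the only one detected of the Slc6 glycine carriers Slc6a5 and Slc6a9. Its log2 signals were 13.32 and 13.11 with scrambled peptide and 12.51 and 12.32 with MOTS-c, and the groups stood apart by more than the arrays of either group. The change was -0.80 ± 0.15 (SE; limma adjusted p = 0.474), or 1.74-fold lower. It remained called with any array left out, with changes from -0.90 to -0.69.

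Slc6a19, the sodium-dependent neutral amino acid carrier B0AT1 of gut and kidney, was also lower on both arrays. It gave 7.65 and 7.98 with scrambled peptide and 7.06 and 7.003 with MOTS-c. The change was -0.79 ± 0.16 (SE; limma adjusted p = 0.486), or 1.73-fold lower, and it ranged from -0.95 to -0.62 with an array left out, each time called, but was -0.49 and not called with normexp. Its neighbour Slc6a18 was not detected. Collectrin (Cltrn), a partner with which B0AT1 reaches the membrane, changed by -0.07 ± 0.14 (SE; limma adjusted p = 0.931), and its groups overlapped. Slc6a3, Slc6a15 and Slc6a17 changed by 0.02 to 0.13, with a lowest adjusted p of 0.892 in limma.

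**Figure D4:**
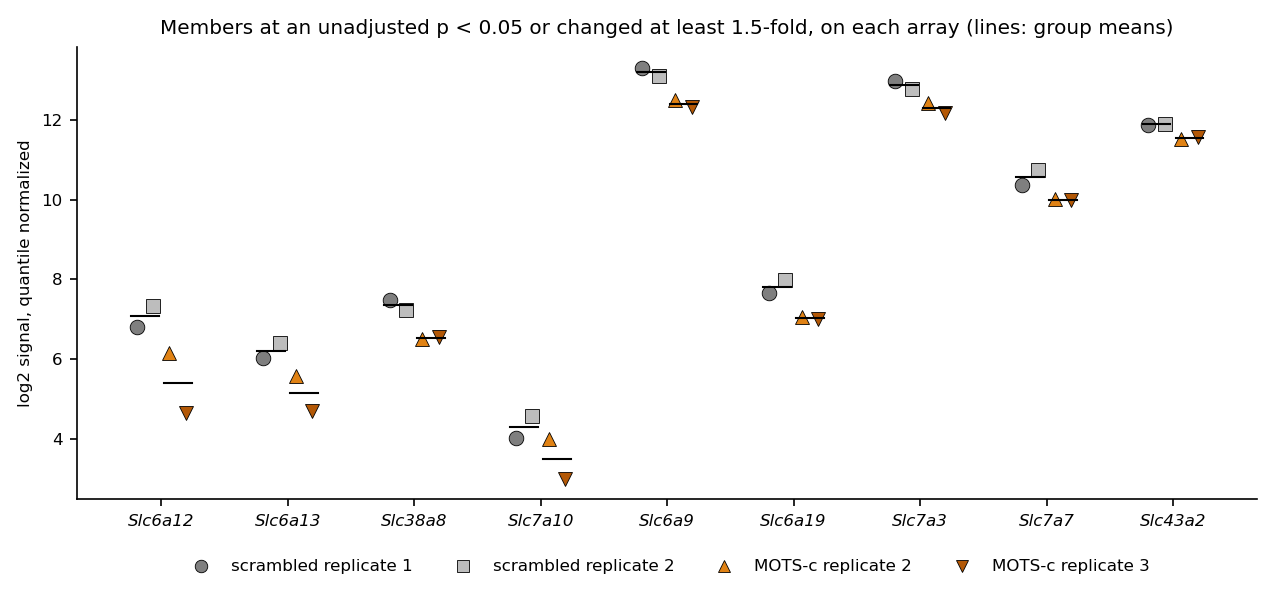
Quantile-normalized log2 signal on each array for the 9 members at an unadjusted p under 0.05 or changed at least 1.5-fold, with lines at the group means. All 9 lie lower on both MOTS-c arrays, and MOTS-c replicate 3 lies well below replicate 2 for Slc6a12 (4.64 against 6.16), Slc6a13 (4.70 against 5.58) and Slc7a10 (3.00 against 3.99). Levels of different genes are of different probes and are not to be compared.

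The heavy chains showed little change. Slc3a2 (4F2hc, CD98), which carries most of the light chains to the membrane, gave 15.16 and 15.17 with scrambled peptide and 15.10 and 14.86 with MOTS-c, a change of -0.19 ± 0.14 (SE; limma adjusted p = 0.799). MOTS-c replicate 2 lay only just below the scrambled arrays. A further Slc3a2 probe changed by -0.11 ± 0.18. Slc3a1 (rBAT), the partner of Slc7a9, gave 5.80 and 5.56 against 5.75 and 5.59, with overlapping groups and a change of -0.01 ± 0.15 (SE; limma adjusted p = 0.9951).

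Of the 10 light chains, 6 were tested, 5 were lower on both MOTS-c arrays (background 22.7%) and 1 (Slc7a6) was higher on both (background 19.8%). Slc7a7 (y+LAT1), which exchanges cationic for neutral amino acids, gave 10.37 and 10.75 with scrambled peptide and 10.01 and 10.00 with MOTS-c. The change was -0.55 ± 0.17 (SE; limma adjusted p = 0.563), just short of 1.5-fold, and it was called without scrambled replicate 1 (-0.75). The change was -0.36 without scrambled replicate 2, and the unadjusted p exceeded 0.05 there and without either MOTS-c array. Slc7a8 (LAT2), a carrier of neutral amino acids, gave 12.65 and 12.98 against 12.53 and 12.11, a change of -0.49 ± 0.21 (SE; limma adjusted p = 0.681). It was called without MOTS-c replicate 2 (-0.70), but was -0.29 without MOTS-c replicate 3 and -0.33 without scrambled replicate 2, and its further probe changed by -0.11 ± 0.22.

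Slc7a10 (Asc-1), a carrier of small neutral amino acids including D-serine, gave 4.03 and 4.58 with scrambled peptide and 3.99 and 3.00 with MOTS-c. The first MOTS-c value lay just below the lower scrambled value and the second well below all others. The change was -0.81 ± 0.39 (SE; limma adjusted p = 0.704), it was -0.31 without MOTS-c replicate 3 and -1.31 without MOTS-c replicate 2, where it was called. Its spot stood at 1.08 to 1.71 times the local background and was well above background on both scrambled arrays and on 1 MOTS-c array. Slc7a5 (LAT1), the leucine carrier that feeds mTORC1, changed by -0.22 ± 0.12, the cystine-glutamate exchanger Slc7a11 (xCT) by -0.09 ± 0.12 and Slc7a6 (y+LAT2) by 0.20 ± 0.12, with adjusted p of 0.734, 0.902 and 0.753 in limma. The further probe of Slc7a6 moved likewise (0.27 ± 0.12), and that of Slc7a11 the other way (0.03 ± 0.20).

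All 5 genes grouped as cationic amino acid carriers were detected, and 1 of them, Slc7a3, passed the unadjusted p. Slc7a3 (CAT3) gave 12.97 and 12.78 with scrambled peptide and 12.42 and 12.19 with MOTS-c, without overlap, for a change of -0.57 ± 0.15 (SE; limma adjusted p = 0.539). Its 1.49-fold change lay just under the 1.5-fold limit, and just over it when scrambled replicate 2 (-0.66) or MOTS-c replicate 2 (-0.69) was left out. Slc7a3 was also called with normexp (-0.59) and with a 75th percentile shift (-0.59). Without scrambled replicate 1 (-0.48) or MOTS-c replicate 3 (-0.46) the unadjusted p exceeded 0.05. Slc7a1 (CAT1), the widely expressed arginine carrier, gave 14.00 and 14.01 against 13.91 and 13.73, a change of -0.19 ± 0.13 (SE; limma adjusted p = 0.783). Slc7a14, a lysosomal relative, gave 13.24 and 12.91 against 13.08 and 13.40, a change of 0.17 ± 0.19 (SE; limma adjusted p = 0.867) with overlapping groups. Slc7a2 and Slc7a4 changed by -0.01 and 0.05.

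Several of these carriers are known to be induced through ATF4 when amino acids are short. All 8 such members were tested (Slc1a4, Slc38a2, Slc3a2, Slc6a9, Slc7a1, Slc7a3, Slc7a5 and Slc7a11). The change was negative in 7 of 8, lower on both MOTS-c arrays in 6 (background 22.7%), called lower in 1 (Slc6a9, background 3.01%) and called higher in 0 (background 0.996%), with a median of -0.19. Of 9 other genes of the pathway, 0 were called, 8 had a negative change and 6 were lower on both MOTS-c arrays (background 22.7%), with a median of -0.14. They included Atf4 itself (-0.22 ± 0.13), the serine synthesis enzyme Phgdh (-0.28 ± 0.13), Chac1 (-0.24 ± 0.12), Trib3 (-0.15 ± 0.13), Ddit3 (-0.14 ± 0.18) and Asns (-0.04 ± 0.12). Eif2ak4, the kinase GCN2 that senses uncharged tRNA, was the exception at 0.28 ± 0.15 and was higher on both arrays. None of these 9 reached an unadjusted p of 0.05 (lowest adjusted p 0.695 in limma, for Phgdh).

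ATF4 and its partners bind CARE elements of the form TGATGNAA, and the bases before a start are shown for Slc7a11, in which it is a known site, and for Slc7a7, which has the largest change among the members holding the motif. The bases are from RefSeq on GRCm38.p6, 5′ to 3′ on the gene's strand, with the motif in capitals.
Slc7a11, chr3:50443614-50443773, minus strand: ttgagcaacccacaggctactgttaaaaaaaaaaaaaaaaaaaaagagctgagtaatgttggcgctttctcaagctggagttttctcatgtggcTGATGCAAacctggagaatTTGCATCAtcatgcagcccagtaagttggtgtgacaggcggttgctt
Slc7a7, chr14:54417945-54418104, minus strand: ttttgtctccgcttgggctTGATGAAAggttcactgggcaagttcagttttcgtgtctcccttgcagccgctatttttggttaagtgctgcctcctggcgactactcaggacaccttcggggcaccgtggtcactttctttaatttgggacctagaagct
Slc7a11 holds the motif on both strands, from 66 to 59 and from 47 to 40 bases before the start. TGATGNAA on either strand was found in 4 of the 42 members with a window (9.52%; Slc1a4, Slc6a21, Slc7a7 and Slc7a11) and in 4.51% of all genes of the table. By window, it was in 5 of the 63 member windows and in 3.97% of all windows. Slc7a11 changed by -0.09, Slc1a4 by -0.01 and Slc7a7 by -0.55 on the log2 scale. The motifs TGACGTCA and TATAAA, also searched on both strands, were found in 2.38% and 14.3% of members against 2.03% and 15.7% of all genes.

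The Slc38 family held the remaining call, Slc38a8, and several carriers of glutamine with little change. Slc38a5 (SNAT5), a glutamine carrier coupled to proton exchange, gave 15.91 and 15.62 with scrambled peptide and 15.32 and 15.63 with MOTS-c. The groups overlapped narrowly and the change was -0.29 ± 0.18 (SE; limma adjusted p = 0.759). Slc38a1 (SNAT1) gave 14.74 and 14.49 against 14.47 and 14.54, a change of -0.11 ± 0.14 (SE; limma adjusted p = 0.893). Both of its further probes were negative too, at -0.15 and -0.21. Slc38a2 (SNAT2), which is induced when amino acids are scarce, gave 13.91 and 13.60 against 13.79 and 13.85, a change of 0.07 ± 0.16 (SE; limma adjusted p = 0.946). Slc38a4 (SNAT4) gave 13.35 and 13.32 against 13.08 and 13.25, a change of -0.17 ± 0.13 (SE; limma adjusted p = 0.804). Slc38a1, Slc38a2 and Slc38a4 are neighbours, and none of them was called.

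Slc38a8, a glutamine carrier best known from the eye, gave 7.48 and 7.22 with scrambled peptide and 6.50 and 6.56 with MOTS-c. The arrays of each group lay close together and the groups stood apart. The change was -0.82 ± 0.14 (SE; limma adjusted p = 0.474), or 1.77-fold lower, and was called with any array left out. Its further probe gave means of 5.38 and 5.34 and a change of only -0.04 ± 0.19 (SE; limma adjusted p = 0.975), so that the call belongs to 1 of 2 probes, and with the probes of a gene averaged the change was -0.43 and was not called, nor was the -0.55 with normexp. The other Slc38 members, Slc38a3, Slc38a6, Slc38a7, Slc38a9 and Slc38a10, changed by -0.19 to 0.27 with adjusted p of 0.742 to 0.984 in limma. Among them is Slc38a9, the lysosomal arginine sensor of mTORC1, at 0.04 ± 0.14. Slc38a6 was higher on both MOTS-c arrays, and both of its further probes had positive changes (0.34 and 0.10).

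Of the 5 Slc1 members tested none was called. Slc1a1 (EAAC1), a glutamate, aspartate and cysteine carrier, gave 8.40 and 8.77 with scrambled peptide and 9.09 and 8.52 with MOTS-c, a change of 0.21 ± 0.25 (SE; limma adjusted p = 0.874). The groups overlapped, and its trafficking partner Arl6ip5 changed by -0.21 ± 0.13 (SE; limma adjusted p = 0.757). Slc1a2 (GLT-1), the main glutamate carrier of the brain, gave 6.06 and 6.30 against 5.98 and 5.80, a change of -0.29 ± 0.15 (SE; limma adjusted p = 0.728). Slc1a7 (EAAT5), a glutamate carrier of the retina, gave 6.57 and 7.03 against 6.51 and 5.93, a change of -0.58 ± 0.27 (SE; limma adjusted p = 0.694). Slc1a2 and Slc1a7 were lower on both MOTS-c arrays, and Slc1a7 was called without MOTS-c replicate 2 (-0.86), but was -0.29 without MOTS-c replicate 3 and -0.36 without scrambled replicate 2. Slc1a4 (ASCT1), an exchanger of serine and other small neutral amino acids, gave 11.65 and 11.98 against 11.76 and 11.84, a change of -0.01 ± 0.16 (SE; limma adjusted p = 0.994). Slc1a6 (EAAT4) gave 4.83 and 4.39 against 4.76 and 4.59, a change of 0.07 ± 0.19 (SE; limma adjusted p = 0.958). It was detected only narrowly, at 1.49 to 1.85 times the local background.

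In the Slc43 family, Slc43a2 (LAT4), which lets leucine and other large neutral amino acids pass in either direction, gave 11.89 and 11.91 with scrambled peptide and 11.52 and 11.59 with MOTS-c. The change was small but exceeded the spread within either group, at -0.35 ± 0.12 (SE; limma adjusted p = 0.6), or 1.27-fold lower. The unadjusted p exceeded 0.05 with any array left out, and its further probe changed by -0.08 ± 0.16. Slc43a1 changed by 0.16 ± 0.40, and Slc43a3 was well above background on scrambled replicate 2 only. In the Slc36 family, the lysosomal carrier Slc36a1 and Slc36a4 changed by -0.11 and -0.09 with overlapping groups.

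Further probes were tested for 16 members. Of 19 such probes, 17 had the sign of the brightest probe, and the exceptions were those of Slc7a11 and Slc6a17 (-0.13 against 0.02). No further probe was available to test for Slc6a9, Slc6a12, Slc6a13, Slc6a19, Slc7a3 or Slc7a7, so that 4 of the 5 calls rest on a single tested probe.

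**Figure D5:**
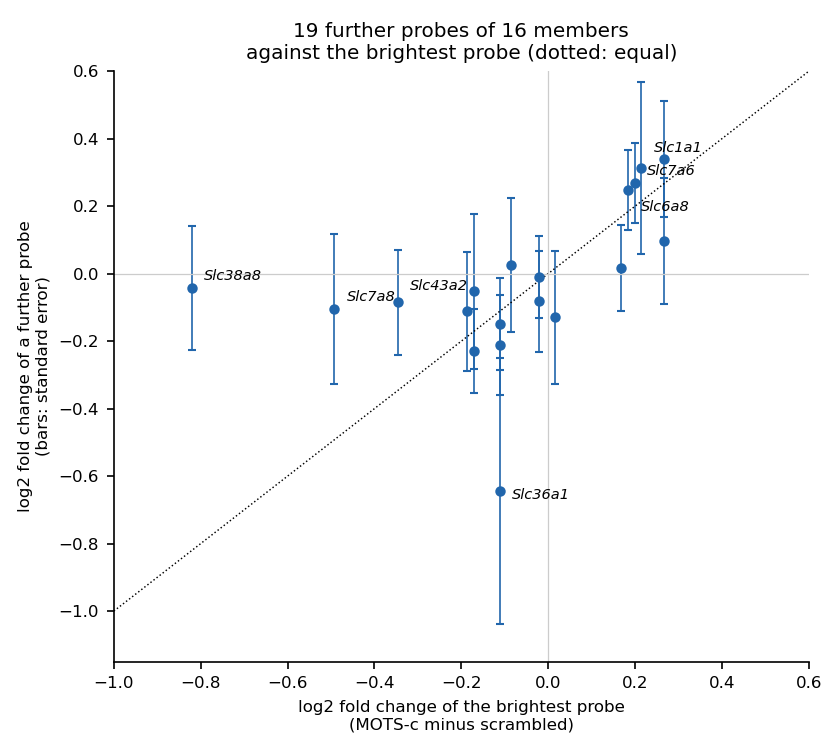
Log2 fold change of each of 19 further probes, with its standard error, against that of the brightest probe of the same member. The probes of Slc38a8, Slc7a8 and Slc43a2 lie near 0 (-0.04, -0.11 and -0.08) where the brightest probes were at -0.82, -0.49 and -0.35, and both probes of Slc6a8, Slc7a6 and Slc1a1 lie above 0.

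Amino acid carriers outside the set held 1 call, where 3.01% of all named genes were called lower and 0.996% higher. Slc32a1, the vesicular carrier that loads GABA and glycine into vesicles, gave 11.81 and 11.60 with scrambled peptide and 10.96 and 10.28 with MOTS-c. The change was -1.08 ± 0.26 (SE; limma adjusted p = 0.52). Of the 4 vesicular glutamate and GABA carriers, 3 were tested and only Slc32a1 was called. The vesicular glutamate carriers Slc17a7 and Slc17a8 changed by 0.30 ± 0.17 and 0.21 ± 0.14 and Slc17a6 was not detected. Of 10 other amino acid and peptide carriers, 6 were tested and 0 were called, with changes from -0.17 to 0.43. Of 9 mitochondrial amino acid carriers, 8 were tested and 0 were called, with changes from -0.33 to 0.16.

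The labelled cell type was checked against its markers. The beta cell genes Ins1, Ins2, Iapp, Mafa, Nkx6-1 and G6pc2, the alpha cell gene Gcg and the delta cell gene Sst were well above background on all 4 arrays, whereas the beta cell gene Ucn3 was on none and Slc2a2 on 3. Slc2a2, the glucose carrier, stood at 1.85 and 2.30 times the local background with scrambled peptide and at 1.31 and 1.33 times with MOTS-c, where it was well above background on 1 array. Its change was -1.33 ± 0.14 (SE; limma adjusted p = 0.474). It was the 1 call among the 7 beta cell markers tested (background 3.01% of all named genes called lower). Of these 7, 4 had a negative and 3 a positive change. The alpha cell factor Irx2 changed by 0.68 ± 0.16 (limma adjusted p = 0.519).

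Markers of other cells that islet preparations can hold were also compared between the groups. Of 7 mesenchymal markers, 2 were tested, and Col1a1, Col3a1, Dcn, Lum and Pdgfrb were not well above background on any array. The summed level of the 2 tested, Pdgfra and Col1a2, was 7.66 and 7.88 with scrambled peptide and 7.36 and 7.14 with MOTS-c. Pdgfra gave 6.37 and 5.76 with scrambled peptide and 5.39 and 4.65 with MOTS-c, a change of -1.05 ± 0.33. It was the 1 call among the 2 mesenchymal markers tested (background 3.01% of all named genes called lower). Col1a2 changed by -0.30 ± 0.23, and its groups overlapped. Of 6 leukocyte markers, 3 were tested, with a summed level of 11.98 and 12.37 against 12.02 and 11.75. C1qa changed by -0.67 ± 0.20, Csf1r by -0.21 ± 0.29 and Cd68 by 0.16 ± 0.22. C1qa was the 1 call among the 3 leukocyte markers tested (background 3.01% called lower). Ptprc, Lyz2 and Adgre1 were on no array well above background. Of 5 Schwann cell markers, 2 were tested and 0 were called. The duct markers had 4 of 6 tested, the acinar markers 2 of 7 and the endothelial markers 2 of 5, with 0 called. The part of these cells in the changes of the members was not tested.

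Promoter windows were at hand for 42 of the 59 members. The ratio of observed to expected CpG was taken in the 250 bases before each start and averaged over the starts of a gene. Its median was 0.599 in the 32 tested members with a window and 0.383 in the 10 that were not tested. Over all 27025 genes of the table it was 0.379. These values describe the bases before the starts and were not tested.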

How the data were processed

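RNA of 4 islet cell samples was hybridized to 1-color Agilent mouse arrays (Cy3) on 1 slide. The deposited scanner files, written by Feature Extraction 11.0.1.1 per the file headers, hold background-corrected spot intensity (processed signal). The authors' deposited value table holds the same intensities rounded and served as an alternative. Of 56605 gene probes, 32994 had a gene symbol through the RefSeq table, 35087 were well above background on at least 2 of 4 arrays and were kept, and control and outlier spots were left out. Signals were transformed to log2, quantile normalized and compared with limma (version 3.58.1, R 4.3.3), with Benjamini-Hochberg adjustment over all 35087 probes. Scripts were tested on simulated data. The methods' t-test, other normalizations and filters, and leaving out each array were alternatives.

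The members and gene lists were chosen with earlier results of these data known, and some genes, among them 1 carrier of these families left out of the set, are not reported here by name. Values on each array are given for members changed at least 1.5-fold, at an unadjusted p under 0.05, among the 12 of brightest mean signal, in Slc3 or detected in Slc1 (25 members). Others are given by range and count. Levels of different probes cannot be compared. Motifs were searched in 250 bases before and 50 after each RefSeq start (GRCm38.p6), and only bases before a start are printed. Coordinates are those of that table, not of the array design.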

Additional observations from a re-analysis of the deposited data

How the results depend on the processing

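The number of members called lower was 5 as reported and stayed between 4 and 6 with a 75th percentile shift, the authors' rounded values, a strict filter on dim probes, limma with a trend and the mean over the probes of a gene. It was 3 with normexp background correction (median signals), 3 with no filter on dim probes and 3 with the methods' t-test, and between 4 and 9 with an array left out (9 without MOTS-c replicate 2). No member was called higher under any of these 12 settings, and no member passed an adjusted p of 0.05. Over all probes, 1239 were called as reported, 406 with normexp, 457 with the methods' t-test and between 1374 and 3264 with an array left out (3264 without MOTS-c replicate 2). The methods' t-test put 6 members at an unadjusted p under 0.05, 5 lower and 1 (Slc7a6) higher, and none after Benjamini-Hochberg adjustment. The 3 called under normexp were Slc6a9 (-0.78), Slc6a12 (-0.90, against -1.67 as reported) and Slc7a3 (-0.59, against -0.57 as reported). Slc6a13 (-0.35), Slc6a19 (-0.49) and Slc38a8 (-0.55) fell short of 1.5-fold there. With the 75th percentile shift, Slc7a3 (-0.59) was called as well. Slc6a12 and Slc6a13 were not called with no filter or in the methods' t-test. With an array left out the direction turned for members that were not called. Slc1a1 ranged from -0.069 (without MOTS-c replicate 2) to 0.50, Slc1a4 from -0.18 to 0.15, Slc1a6 from -0.15 to 0.28, Slc3a1 from -0.13 to 0.11, Slc38a1 from -0.23 to 0.014 and Slc38a2 from -0.090 to 0.23. In all, 271 of 299 values of the named members kept direction and call, 11 lost the call, 8 gained it and 9 changed sign, and the cause was not tested. No paired analysis was possible because the groups share only 1 replicate number. The signal over background limits what can be said of dim members such as Slc7a10, Slc43a1, Slc1a6, Slc38a3 and Slc6a3.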
